A study of Mus musculus with 74 samples.

Results

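Acot1, Acot2, Acot3 and Acot4 encode acyl-CoA thioesterases and lie side by side on mouse chromosome 12, in the order Acot2, Acot1, Acot4 and Acot3 along the plus strand. In mm9 the annotated genes cover chr12:85328811-85334823 (Acot2), chr12:85350448-85358621 (Acot1), chr12:85379329-85385673 (Acot4) and chr12:85393094-85400515 (Acot3). Rows were taken by gene symbol, which gave 4 of 14583 genes of the RNA-seq table and 185 of 743949 peaks in 11 ChIP-seq tables, where each peak carries the name of its nearest gene. Of these peaks, 156 belong to the 8 tables of the nuclear receptor PPARα and the corepressor subunits GPS2 and NCOR, and they fall on 29 sites, named below by their distance from the annotated start of the nearest gene. The others are 19 regions of the histone marks H3K27ac and H3K4me3 and 10 peaks of RNA polymerase II (Pol II).

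The livers came from C57BL/6 mice of 8 to 12 weeks on chow diet, and the methods describe all mice as male. Gps2 LKO mice carry Gps2 flox/flox with Alb-Cre, which is driven by the albumin promoter and deletes in hepatocytes, and their WT controls are Gps2 flox/flox mice of the same breedings. Ncor LKO and Smrt LKO mice lack these corepressors in the liver and have WT controls of their own lines. Ppara KO mice lack PPARα in the whole body, are named B6;129S4-Ppara tm1Gonz/J in the methods, and were compared with the WT livers labelled for that line. RNA was sequenced from 4 WT and 4 Gps2 LKO livers, with 13194385 to 20086127 counted reads per library, and ChIP-seq from 64 libraries with 7.9 to 46.11 Mtags (megatags), a tag being 1 mapped read. Several ChIPs were pooled for each ChIP library, and nothing in the labels says which libraries share an animal, so that p-values measure the spread between libraries.

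These enzymes split acyl-CoA into a free fatty acid and CoA. ACOT1 does so in the cytosol, ACOT2 in mitochondria and ACOT3 and ACOT4 in peroxisomes, where ACOT4 also acts on dicarboxylic acyl-CoA. PPARα, the receptor that senses fatty acids in hepatocytes, binds DNA with RXR at a direct repeat called DR1 and induces genes of fatty acid breakdown, while GPS2, NCOR, SMRT and the deacetylase HDAC3 form a complex that restrains nuclear receptors.

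Of the 29 sites, 10 held a peak in every one of the 8 PPARα, GPS2 and NCOR tables, and 4 of these 10 shared sequence with each other. In local alignments of 300-base windows around the 19 sites found in at least 5 tables, which makes 171 pairs, the 6 best scores were the 6 pairs among the sites at Acot1 -10.1 kb, Acot1 +11.2 kb, Acot4 -5.3 kb and Acot3 -1.3 kb. The sites on either side of Acot1, 21.3 kb apart, were near copies with 96.8% identity over 281 aligned bases. The sites in front of Acot4 and Acot3 had 75.8% identity over 190 aligned bases. An ungapped block of 45 bases ran through all 4 sites, with 28 bases identical in each, and it is shown here because 3 of the 4 sites were among the 4 PPARα sites with the most tags in WT livers of the Ppara line. Each stretch is from the mm9 plus strand, 5′ to 3′, with 40 bases on each side of the block, and capitals mark the bases of the block that all 4 sites share. The stretches lie at chr12:85340338-85340462, chr12:85361632-85361756, chr12:85373975-85374099 and chr12:85391673-85391797. The first 3 are intergenic, and the fourth lies in an intron of the lincRNA 4732463B04Rik, 1.3 kb before the annotated start of Acot3.
Acot1 -10.1 kb: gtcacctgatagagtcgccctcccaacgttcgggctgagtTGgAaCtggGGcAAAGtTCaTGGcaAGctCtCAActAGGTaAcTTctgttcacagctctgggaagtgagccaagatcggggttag
Acot1 +11.2 kb: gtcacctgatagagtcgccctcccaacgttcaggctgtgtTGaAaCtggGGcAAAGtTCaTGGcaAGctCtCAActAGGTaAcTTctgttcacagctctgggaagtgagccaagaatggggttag
Acot4 -5.3 kb: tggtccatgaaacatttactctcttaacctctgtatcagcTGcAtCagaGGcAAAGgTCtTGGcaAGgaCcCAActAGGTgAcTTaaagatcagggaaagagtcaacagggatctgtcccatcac
Acot3 -1.3 kb: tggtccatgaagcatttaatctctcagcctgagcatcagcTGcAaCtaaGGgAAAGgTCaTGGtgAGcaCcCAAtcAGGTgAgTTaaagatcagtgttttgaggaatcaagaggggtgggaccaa

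Because of this likeness, 20.7% of the 50-base stretches in the 300-base window of Acot1 -10.1 kb also occurred in that of Acot1 +11.2 kb. Tags of 50 bases from such stretches cannot be assigned to either site. Whether they were dropped from the counts is not given in the sources used here, and these sites were not taken as independent. No 50-base stretch was shared between the windows of any other pair of the 19 sites. None of the 4 held a DR1 under the search used here, which looked on both strands of the 200 bases around each site's centre for AGGTCA, any base N, and AGGTCA again, with at most 2 of the 12 letters different. The best match differed at 3 letters at both Acot1 sites and Acot3 -1.3 kb, and at 4 letters at Acot4 -5.3 kb. A stretch with that many differences lies in the shared block at each site. How often other peaks hold such looser matches was not counted. That search found a DR1 at 4 of the 29 sites, and it matched 14.0% of the 40214 windows of the same length at all PPARα peaks of the Ppara line and 10.5% of the 48960 at GPS2 peaks of the Gps2 line. Sites with and without a match were bound, as described below. The sequences of the 2 matching sites that were found in every factor table are given to show where the repeat sits. At the Acot4 start site it ends at the last base before the annotated start, in the 120 bases at chr12:85379209-85379328, and at Acot2 -6.1 kb it lies in chr12:85322648-85322847. Both are printed from the plus strand of mm9 with the repeat in capitals, which at Acot4 reads on the minus strand.
Acot4 start: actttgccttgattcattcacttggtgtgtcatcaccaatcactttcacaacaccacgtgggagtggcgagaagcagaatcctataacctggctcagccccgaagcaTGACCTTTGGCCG
Acot2 -6.1 kb: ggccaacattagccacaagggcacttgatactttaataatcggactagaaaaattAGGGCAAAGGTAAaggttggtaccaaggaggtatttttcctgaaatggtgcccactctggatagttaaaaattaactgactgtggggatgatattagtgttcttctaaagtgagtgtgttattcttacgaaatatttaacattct

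The first comparison asks what loss of GPS2 in hepatocytes did to the RNA of the cluster. RNA of all 4 genes was higher in Gps2 LKO than in WT livers, from 2.41-fold for Acot4 to 15.8-fold for Acot3. By edgeR's quasi-likelihood test all 4 passed an adjusted p of 0.05, the threshold used for every call below, against 23.4% of the 12220 genes tested that were called higher. Gps2 itself was read at 15.1 to 16.71 counts on the CPM scale (reads per sequenced total after TMM scaling) in WT and 9.17 to 12.93 CPM in LKO livers, a log2 difference of -0.53 ± 0.11 (SE, adjusted p = 0.0021, edgeR). In bulk liver, fewer cells of a type and less RNA per cell cannot be told apart.

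Acot3, a peroxisomal enzyme for medium and long acyl chains, was read at 2.171, 3.923, 2.853 and 2.675 CPM in the 4 WT livers and at 50.26, 45.07, 44.98 and 43.97 CPM in the 4 LKO livers. The LKO values lay close together and far above every WT value. The log2 difference was 3.98 ± 0.13 (SE, adjusted p = 3.52e-11, edgeR).

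Acot2, the mitochondrial enzyme, had the fewest reads of the 4 in WT livers, at 1.179, 1.783, 1.339 and 1.21 CPM, and reached 5.452, 6.053, 4.523 and 5.27 CPM in LKO livers. The groups did not overlap, and the log2 difference was 1.95 ± 0.17 (SE, adjusted p = 1.2e-06, edgeR).

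Acot1, the cytosolic enzyme, was read at 4.529, 5.765, 5.007 and 5.159 CPM in WT and at 19.12, 12.21, 15.24 and 16.55 CPM in LKO livers. Its LKO values spread more than its WT values, without overlap, and the log2 difference was 1.61 ± 0.14 (SE, adjusted p = 1.16e-06, edgeR). The lowest value belonged to LKO replicate 2, the library that stood apart from the other LKO libraries over all genes, with a chi-square per gene of 19.8 to 29.1 against them, where WT pairs had 1.69 to 2.53. Without that library the log2 differences were 1.70 for Acot1, 1.84 for Acot2, 3.97 for Acot3 and 1.15 for Acot4.

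Acot4, the enzyme for dicarboxylic acyl-CoA, had the most reads in WT livers, at 12.66, 14.09, 12.98 and 15.86 CPM, and was read at 30.62, 40.18, 34.26 and 28.33 CPM in LKO livers. Again no LKO library fell to the WT level, and the log2 difference was 1.27 ± 0.11 (SE, adjusted p = 1.59e-06, edgeR).

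**Figure D1:**
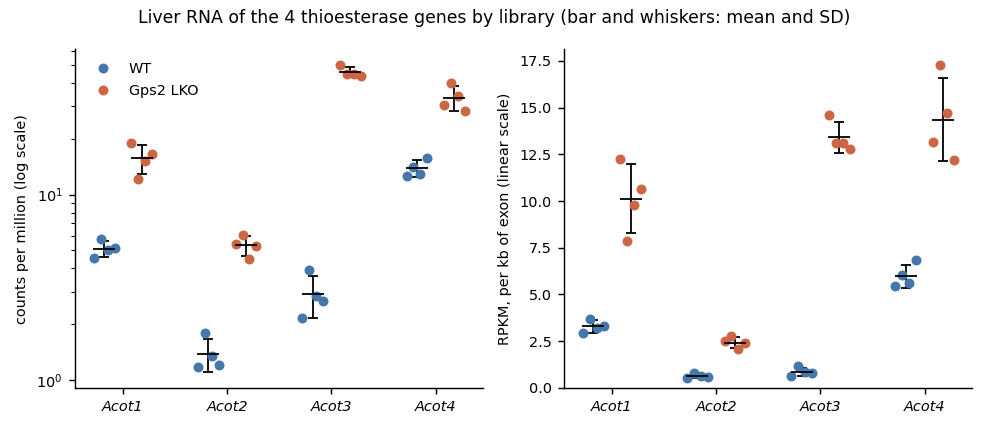
Reads of the 4 thioesterase genes in each of 4 WT and 4 Gps2 LKO livers, as CPM on a log axis (left) and as RPKM on a linear axis (right), each point 1 library and bars the mean and SD. The LKO points lie above the WT points for every gene, and Acot3 moves from near the level of Acot2 to near that of Acot4.

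Levels can be compared between genes only per exon length, as RPKM, the CPM divided by the exon length in kilobases. In WT livers the order was Acot4 at 5.98 ± 0.62, Acot1 at 3.28 ± 0.33, Acot3 at 0.846 ± 0.21 and Acot2 at 0.627 ± 0.13 RPKM (SD, n = 4), and the ranges of Acot3 and Acot2 overlapped. In LKO livers it was Acot4 at 14.3 ± 2.2, Acot3 at 13.4 ± 0.83, Acot1 at 10.1 ± 1.8 and Acot2 at 2.42 ± 0.29 RPKM (SD, n = 4), where the range of Acot4 overlapped those of Acot3 and Acot1. Acot3 thus came from the lower to the upper end of the cluster. Its share of the summed RPKM of the 4 genes rose from 6.64% to 9.75% in WT livers to between 32.0% and 34.4% in LKO livers (exact permutation test, two-sided, p = 0.0286, the smallest that 4 against 4 allow, adjusted p = 0.0381 over the 4 genes). The share of Acot4 fell by 20.2 and that of Acot1 fell by 5.46 percentage points with the same p-values, and that of Acot2 was 5.83% ± 0.88 in WT and 6.01% ± 0.66 in LKO livers (SD, n = 4, exact permutation p = 0.771).

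The coding sequences of the 4 genes are alike, which bears on how reads were divided between them. Acot1 and Acot2 had 95.5% identity, and the other 5 pairs between 75.9% and 84.3%. Of the 50-base stretches of the annotated transcripts, 47.1% of those of Acot1, 27.6% of Acot2, 12.1% of Acot4 and 10.0% of Acot3 also occurred in another Acot gene of the family (Acot1 to Acot6), so that Acot1 and Acot2 are the least certain of the 4 values. The lincRNA 4732463B04Rik runs on the minus strand across Acot4 and the beginning of Acot3 (chr12:85380419-85394757). Whether the counting used strand is not given in the sources used here, and reads of this RNA cannot be told apart from those of Acot4 and Acot3.

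Markers of several liver cell types were also called higher in LKO livers by edgeR, where 23.4% of all genes tested were. Among them were 4 of 6 hepatocyte, 5 of 6 Kupffer cell, 6 of 6 stellate cell, 3 of 6 sinusoidal endothelial, 2 of 4 tested cholangiocyte markers and the 1 lymphocyte marker tested. No marker was at 0 in every library. The summed hepatocyte markers made up 107500 to 111400 CPM in WT and 145500 to 173200 CPM in LKO livers, the stellate cell markers 179.6 to 187.7 and 335.0 to 346.8 CPM, and the Kupffer cell markers 111.0 to 113.5 and 143.9 to 173.3 CPM. Their part in the rise of the Acot genes was not tested.

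The rest of the fatty acid machinery was mixed in direction. Over all genes tested 23.4% were called higher and 21.4% lower. Among 10 other acyl-CoA thioesterases tested, 4 rose and 2 fell. Acot9, a mitochondrial enzyme, rose 1.78-fold and Acot13 1.47-fold, while Acot11 fell by 1.94 on the log2 scale, from 11.9 ± 1.5 to 3.05 ± 0.75 CPM (SD, n = 4). Acot5, the next gene of the same family after Acot3 on chromosome 12, is not among the genes counted in the RNA-seq data. Acot6, which lies beyond Acot5, was near 0 at 0.247 ± 0.14 CPM in WT and 0.233 ± 0.085 CPM in LKO livers (SD, n = 4). It was not tested because of its low counts.

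Of 18 genes of peroxisomal fatty acid oxidation, 6 rose and 6 fell. The transporter Abcd2 rose 3.05-fold and the thiolase Acaa1b 2.12-fold, whereas Acox2 (log2 -0.69) and Pex11a (log2 -0.63) fell. Of 16 genes of mitochondrial oxidation 5 rose and 3 fell, and Etfb had the largest rise, at 1.33-fold. Of 9 genes of omega-oxidation, which makes dicarboxylic acids, 5 rose and 2 fell, from 28.8-fold higher for Cyp4a14 to a log2 difference of -1.90 for Cyp4a12a. Of 17 genes that make or bind acyl-CoA, 7 rose, with Acss2 at 1.68-fold and Fabp1 at 1.67-fold, and 5 fell, with Acsm2 at log2 -1.10 (edgeR, adjusted p below the threshold for each gene said to rise or fall). Against these lists, whose median log2 differences lay between 0.03 and 0.24, the median of the 4 cluster genes was 1.78 and that of all genes tested 0.03.

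Binding of PPARα to the cluster was measured in 2 WT and 2 Ppara KO libraries, where the KO libraries give the background of the antibody. PPARα tags were lower in KO livers at 16 of 17 peaks, as at 91.5% of all peaks, and 10 of 17 passed the test as lower, where 27.6% of all peaks tested did. The strongest was Acot4 -5.3 kb, with 46.72 and 52.01 tags per 10000000 in WT and 4.806 and 1.466 in KO livers, a log2 difference of -3.91 ± 0.35 (SE, adjusted p = 5.31e-06, edgeR). Acot1 +11.2 kb, which shares its 45-base block, had 30.44 and 28.3 tags against 0.6866 and 2.199. Acot4 -4.0 kb had 17.7 and 28.3 tags in the WT libraries and none in either KO library, so that it was at least 21.4-fold lower, with the KO set at 3 tags over both libraries. The WT and KO values of these 3 sites lay far apart.

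Acot1 -10.1 kb (18.4 and 16.06 against 1.373 and 2.199 tags per 10000000), Acot1 -1.0 kb (16.28 and 12.24 against 0 and 1.466), the Acot4 start site (12.03 and 13.77 against 2.747 and 1.466) and Acot4 +4.1 kb (13.45 and 15.3 against 3.433 and 3.665) were also called lower. So were Acot3 +0.6 kb, Acot3 -1.3 kb and Acot2 -6.1 kb, with adjusted p of 0.00638, 0.0195 and 0.0256 by edgeR. At the Acot2 start site PPARα had no more than 1.373 tags per 10000000 in any library. The median log2 difference of the 17 peaks was -2.26 and that of all peaks -1.68, and with TMM scaling they were -0.80 and -0.22 with 4 of 17 called, namely Acot1 -1.0 kb, Acot1 +11.2 kb, Acot4 -5.3 kb and Acot4 -4.0 kb. The share of all peaks called with TMM scaling is not given here. No peak of the cluster was called without WT replicate 1 or without WT replicate 2, which leaves 1 WT library.

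**Figure D2:**
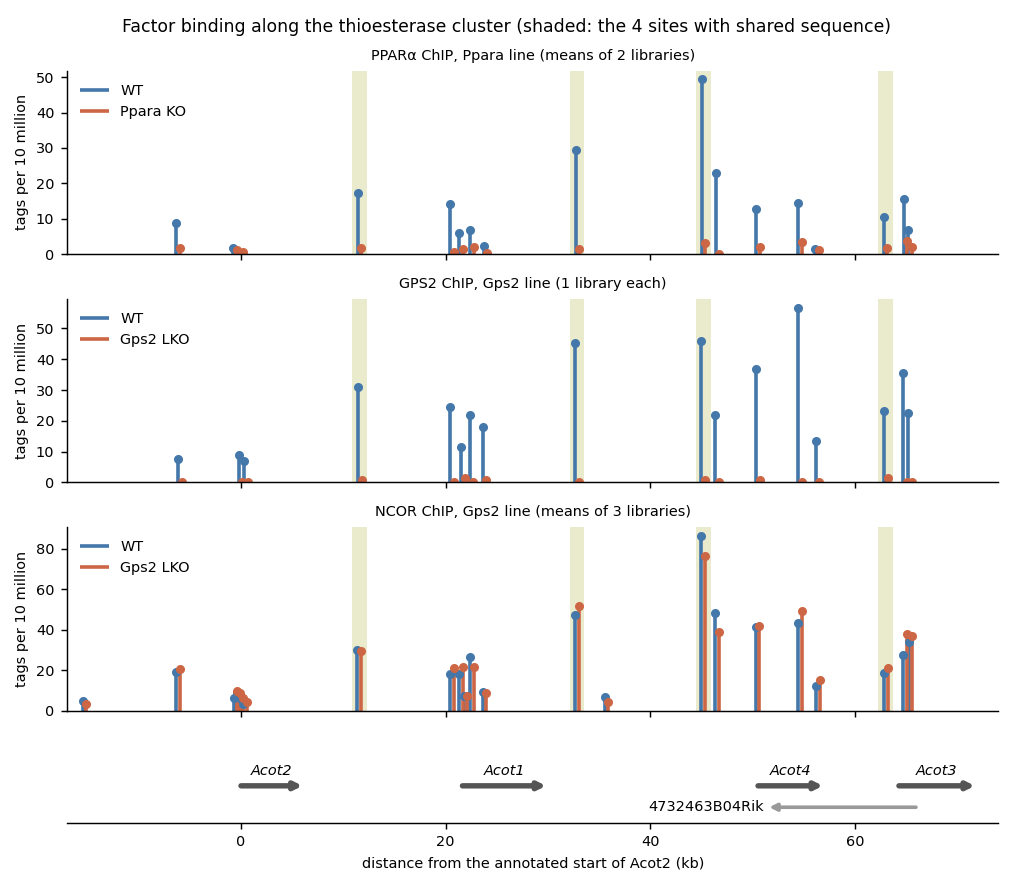
Tags per 10000000 at each peak along the cluster for PPARα in the Ppara line, GPS2 in the Gps2 line and NCOR in the Gps2 line, with WT and knockout side by side, over distance from the Acot2 start in kb, and gene arrows below. The shaded sites carry the shared 45-base block. The KO bars fall near 0 for PPARα and GPS2 and stay near the WT bars for NCOR.

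In the Gps2 line, PPARα tags were higher in LKO than in WT livers at each of the 21 peaks, as they were at 89.3% of all peaks. With 3 WT and 3 LKO samples 18 of 21 peaks were called higher, where 36.6% of all peaks were. The 3 WT libraries differed from each other by less than the sampling noise, with a chi-square per peak of 0.92 to 0.94, where LKO pairs had 1.37 to 1.80, and were therefore also counted as 1 sample. Counted once, WT has no spread of its own and was assumed to vary like the LKO libraries, and 11 of 21 peaks were called, where 21.5% of all were. LKO libraries had 28.9% to 32.1% of their tags in peaks and WT libraries 19.2% to 21.9%, and the part of this difference in the rise was not tested.

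At Acot3 -1.3 kb the WT libraries had 45.56, 47.49 and 30.44 and the LKO libraries 123, 84.31 and 81.5 tags per 10000000, a log2 difference of 1.19 ± 0.19 (SE, adjusted p = 3.42e-08 with 3 WT samples and 0.000273 with 1, edgeR). Acot2 -6.1 kb had 26.58, 26.6 and 27.05 tags in WT and 62.06, 58.73 and 54.53 in LKO livers, a difference of 1.11 ± 0.22 (adjusted p = 1.78e-05 and 0.00184 in the same order). Neither site's groups overlapped. Acot4 -4.0 kb, with 93.0 tags per 10000000 over the pooled WT libraries, rose by 0.81 ± 0.16 (adjusted p = 9.42e-06 and 0.0143).

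At several of the sites with the most PPARα in WT livers the differences were smaller, and they were called with 3 WT samples but not with 1. Acot4 -5.3 kb had 143, 136.8 and 163.4 tags per 10000000 in WT and 208, 207.5 and 161.2 in LKO livers, so that its groups overlapped, with a log2 difference of 0.37 ± 0.15 (SE, adjusted p = 0.0356 with 3 WT samples and 0.258 with 1, edgeR). Acot1 -10.1 kb and Acot1 +11.2 kb, the near copies, differed by 0.56 ± 0.15 (adjusted p = 0.00213 and 0.0861) and 0.53 ± 0.15 (adjusted p = 0.00408 and 0.0981). The Acot4 start site differed by 0.61 ± 0.18 (adjusted p = 0.00346 and 0.0554). Over the whole cluster the median log2 difference was 0.81, against 0.62 for all peaks of the table. Scaling by TMM, which sets the median of all peaks to 0.01, left 3 of 21 peaks called and put 8 of the 21, Acot4 -5.3 kb included, below 0. The share of all peaks called with this scaling is not given here.

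**Figure D3:**
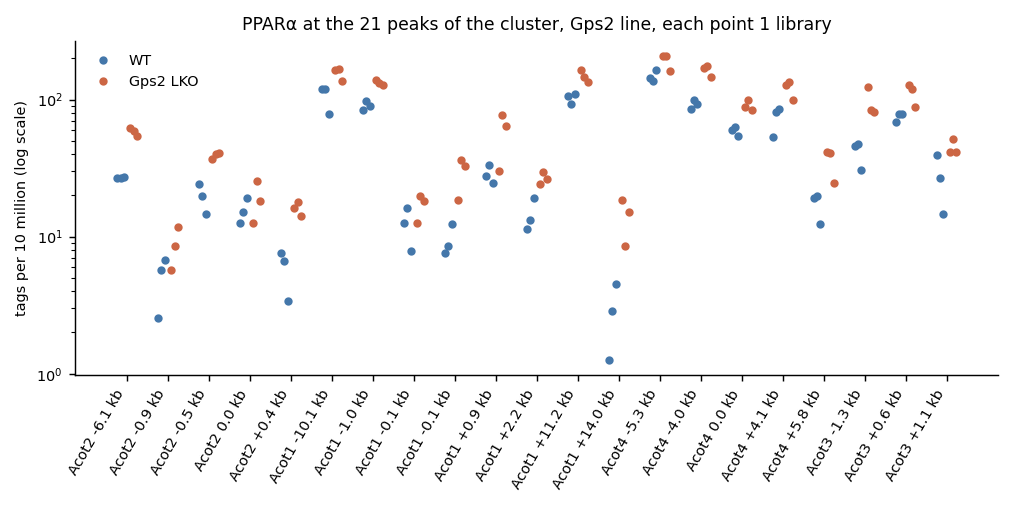
PPARα tags per 10000000 (log axis) at the 21 peaks of the cluster in the Gps2 line, each point 1 library of 3 WT and 3 Gps2 LKO. LKO points lie above WT points at most peaks, with the widest gaps at peaks of low WT signal and overlap at Acot4 -5.3 kb.

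In the Ncor line, 0 of 20 PPARα peaks of the cluster were called, where 0.196% of all 86168 peaks were and 4506 of all passed an unadjusted p of 0.05 in edgeR. Acot4 -5.3 kb had 88.84, 92.9 and 51.83 tags per 10000000 in WT and 87.26, 92.29 and 107 in LKO livers. Acot1 -1.0 kb had 27.14, 39.51 and 24.73 against 43.35, 52.82 and 60.8 tags, without overlap but with an adjusted p of 1.0 (log2 0.78 ± 0.49, SE). WT replicate 3 was the lowest library at both sites and had 8.96% of its tags in peaks, against 14.7% to 21.1% in the other 5 libraries.

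GPS2 itself was found at 17 peaks of the cluster in the 1 WT library of the Gps2 line and was at least 2-fold lower in the 1 LKO library at each, as were 99.6% of all GPS2 peaks. Scaled to the tags in all peaks of each library, 14 of 17 were at least 2-fold lower and 1 at least 2-fold higher. This is the control of the antibody, without replicates. Acot4 +4.1 kb had the most, with 56.8 tags per 10000000 in WT (88 tags, exact Poisson 95% interval 45.5 to 70.0, counting error only) and no tag in LKO liver. Acot4 -5.3 kb followed with 45.8 (35.8 to 57.8) against 0.676 (0.0171 to 3.77), and Acot1 +11.2 kb with 45.2 (35.2 to 57.1) against no tag. The sites with the most GPS2 thus included the one with the most PPARα. At Acot2, GPS2 reached no more than 9.03 tags per 10000000.

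In Ncor LKO livers GPS2 tags were below WT at 22 of 24 peaks, yet 0 of 24 were called, where 0.0338% of all were called lower and 88.8% of all lay below 0. The lowest adjusted p was 0.0761. The Acot4 start site had 47.53, 48.23 and 20.36 tags per 10000000 in WT and 9.364, 11.81 and 10.91 in LKO livers, and Acot4 +4.1 kb had 64.66, 51.55 and 25.72 against 13.8, 12.99 and 14.54. In each case WT replicate 3 lay between the other WT libraries and the LKO libraries, and it had 3.07% of its tags in peaks, against 7.82% and 8.23% in the other WT and 2.45% to 3.15% in the LKO libraries. The log2 differences were -1.85 ± 0.63 and -1.77 ± 0.62 (SE). The median of the 24 was -1.30 and that of all peaks -1.12. Without WT replicate 3, 16 of 24 were called. The share of all peaks called without that library is not given here, so this count does not speak for the cluster alone. With TMM scaling the medians were -0.16 and -0.04.

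In Ppara KO livers GPS2 tags were below WT at 10 of 11 peaks, with 0 of 11 called, where 0.273% of all were called lower and 94.8% of all lay below 0. Acot4 -5.3 kb had 34.69, 19.5 and 50.79 tags per 10000000 in WT and 14.56, 9.836 and 5.048 in KO livers, a log2 difference of -1.82 ± 0.56 (SE, adjusted p = 0.11, edgeR). Acot1 -1.0 kb had 4.163, 5.2 and 20.01 against 0.7282, 2.27 and 0.7211, with the lowest adjusted p of 0.0596. At 8 of the 11 peaks the KO libraries lay below the WT range, as at 31.3% of all peaks. Acot2 -6.1 kb was the peak on the other side of 0, with 0.6938, 0.65 and 3.078 against 1.456, 8.323 and 1.442 tags. The median was -1.12 against -0.93 for all peaks. WT libraries had 2.42% to 4.39% and KO libraries 1.07% to 2.06% of their tags in peaks. With TMM scaling the median of the 11 peaks was -0.19.

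NCOR is the subunit that carries HDAC3 to the receptor. In Gps2 LKO livers 0 of 22 NCOR peaks were called, where 0.0173% of all 80813 were and 2253 of all passed an unadjusted p of 0.05 in edgeR. The log2 differences ran from -0.60 to 0.66, with standard errors between 0.41 and 0.62, so that changes of this size at a site were not detectable at this depth and spread. Acot4 -5.3 kb again had the most, with 105.8, 90.85 and 62.61 tags per 10000000 in WT and 78.85, 107.9 and 42.31 in LKO livers, groups that overlapped fully. The Acot4 start site had 47.02, 43.78 and 32.46 against 41.3, 60.14 and 23.32 tags. NCOR tags were thus present in LKO livers at sites where GPS2 tags were at or near 0.

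In Ppara KO livers 2 of 24 NCOR peaks were called lower, where 2.51% of all were. Acot4 -5.3 kb had 133.3, 117.8 and 118.8 tags per 10000000 in WT and 94.01, 84.82 and 64.76 in KO livers, without overlap, a log2 difference of -0.61 ± 0.19 (SE, adjusted p = 0.0469, edgeR). The other was a weak peak at Acot2 -0.5 kb (chr12:85328130-85328260), with 5.689, 2.58 and 13.48 against 1.635, 0.6732 and 0 tags (log2 -3.14 ± 0.87, SE, adjusted p = 0.019). The near copies Acot1 -10.1 kb and Acot1 +11.2 kb, which lost PPARα, had 49.58, 49.02 and 58.98 against 72.75, 58.57 and 46.26, and 100.8, 77.4 and 86.78 against 94.83, 98.96 and 63.33 NCOR tags. Their groups overlapped. Both calls were lost with TMM scaling, with DESeq2, without WT replicate 3 and without KO replicate 3.

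**Figure D4:**
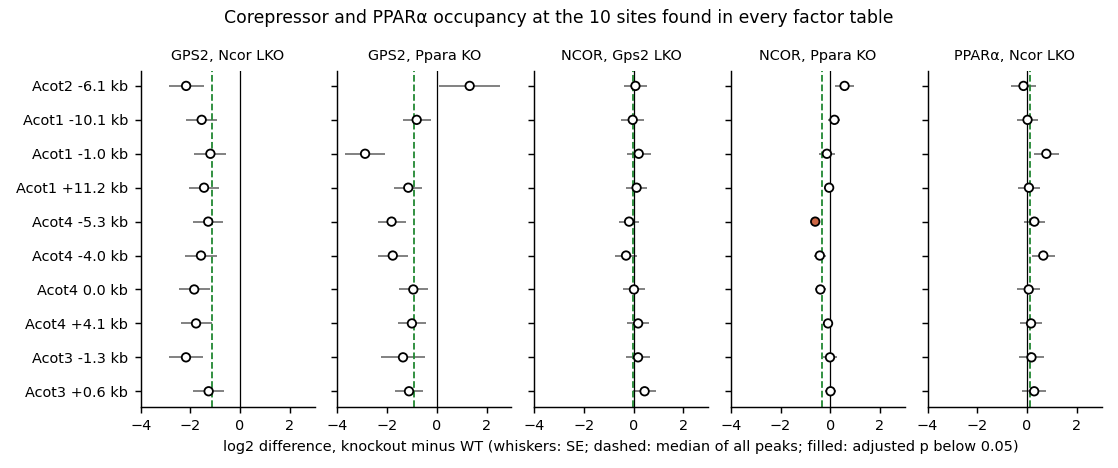
Log2 differences between knockout and WT (whiskers SE) at the 10 sites found in every factor table, for GPS2 in Ncor LKO and Ppara KO, NCOR in Gps2 LKO and Ppara KO, and PPARα in Ncor LKO livers, with the median of all peaks as a dashed line and called sites filled. GPS2 lies left of 0 at each site in Ncor LKO and at each but Acot2 -6.1 kb (log2 1.32) in Ppara KO livers. The called site is Acot4 -5.3 kb for NCOR in Ppara KO livers.

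H3K27ac marks active promoters and enhancers, and H3K4me3 marks active promoters. In the Gps2 line, H3K27ac lay above the WT range in each LKO library at 6 of 7 regions tested, as at 30.1% of all regions, and 3 of 7 passed the test, where 1.21% of all were called higher. The region that covers Acot4 and Acot3 (chr12:85377778-85399074) had 313 and 406.5 tags per 10000000 in WT and 758.1 and 1133 in LKO livers, a log2 difference of 1.39 ± 0.19 (SE, adjusted p = 0.0223, edgeR). The region over Acot1 (chr12:85348389-85355896) had 97.13 and 141.3 against 231 and 297.9 tags (1.14 ± 0.19, adjusted p = 0.0339), and the one at Acot4 -5.3 kb and -4.0 kb (chr12:85372442-85376590) had 47.97 and 56.85 against 99.32 and 131.1 (1.13 ± 0.18, adjusted p = 0.0296). The promoter region of Acot2 was not called, with 149.9 and 175 against 232.5 and 299.2 tags (0.71 ± 0.14, adjusted p = 0.058). These calls did not hold without WT replicate 1 or without WT replicate 2, fits that leave 1 WT library. The share of all regions called in such fits is not given here.

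H3K4me3 was tested at 3 promoter regions, and 2 of 3 were called higher, where 0.798% of all were. Acot1 had 103.9 and 133.6 tags per 10000000 in WT and 262.5 and 381.6 in LKO livers (log2 1.44 ± 0.18, SE, adjusted p = 0.00154, edgeR), and the region of Acot4 and Acot3 had 244.7 and 329.7 against 511.3 and 622.2 (0.98 ± 0.12, adjusted p = 0.00162). With all peaks of the shared table tested neither was called (adjusted p = 0.055 and 0.0721), and DESeq2 called the Acot1 region alone. At the Acot2 promoter it was 171.6 and 185.1 against 223.6 and 235.2 tags (0.36 ± 0.13, adjusted p = 0.367). These regions are wide, and a value for Acot4 alone or Acot3 alone could not be had from the region that spans both genes.

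In the Ncor line 0 of 9 H3K27ac regions were called, where 3.12% of all were. The region of Acot4 and Acot3 had 274.7, 321 and 338.8 tags per 10000000 in WT and 299.8, 339.9 and 157.7 in LKO livers, and the region of Acot1 had 129, 165.7 and 130.4 against 172.5, 150.1 and 129.3. Both pairs of groups overlapped. At Acot1 -10.1 kb they did not, with 11.65, 9.829 and 10.06 against 14.47, 24.4 and 14.31 tags (log2 0.75 ± 0.25, SE, adjusted p = 0.15, edgeR).

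In the Smrt line edgeR called 0 of 9, where it called no region of the whole table and 4079 of 68800 had an unadjusted p under 0.05. DESeq2 called 68 of all and 1 of the 9, the region at Acot2 -6.1 kb (adjusted p = 0.0311). Acot2 -6.1 kb had 11.68, 15.7 and 21.14 tags per 10000000 in WT and 33.1, 38.02 and 33.99 in LKO livers (log2 1.11 ± 0.23, SE, adjusted p = 0.788, edgeR), and Acot1 -10.1 kb had 12.84, 19.14 and 17.99 against 31.69, 32.41 and 33.12. The region of Acot1 had 188.6, 234.8 and 115.4 against 246.7, 281.4 and 310.2 tags, and the one near Acot1 +11.2 kb 40.28, 50.06 and 55.13 against 65.64, 85.74 and 71.43. Groups did not overlap at these 4 regions, and the share of all regions without overlap is not given here. Of the 9 regions, 7 lay above 0 and 2 below, where 51.1% of all lay above. The median log2 difference was 0.62, against 0.01 for all regions. WT replicate 3 and LKO replicate 2 stood apart in the region of Acot4 and Acot3, which had 1497, 1323 and 2574 tags in WT and 1027, 1895 and 1092 in LKO livers, and 0 of 9 were called without both libraries as well. The difference between the Ncor and Smrt effects was not called at any of the 9 regions, where 0.426% of all were, with a lowest adjusted p of 0.372.

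The level of H3K27ac over Acot4 and Acot3 also differed between the lines, which was not tested. It averaged 1798 ± 677 tags per 10000000 in WT livers of the Smrt line and 312 ± 33.1 in those of the Ncor line (SD, n = 3), without overlap, while the Acot2 promoter had 255 ± 23.8 and 152 ± 5.4. The Smrt libraries held no tag in the chromosome Y regions and 918 to 1048 tags at the Xist promoter, and the Ncor libraries 1368 to 1518 and 12 to 22. The methods name male mice, and the Smrt libraries do not carry the signal of that sex. Line and sex signal cannot be told apart.

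**Figure D5:**
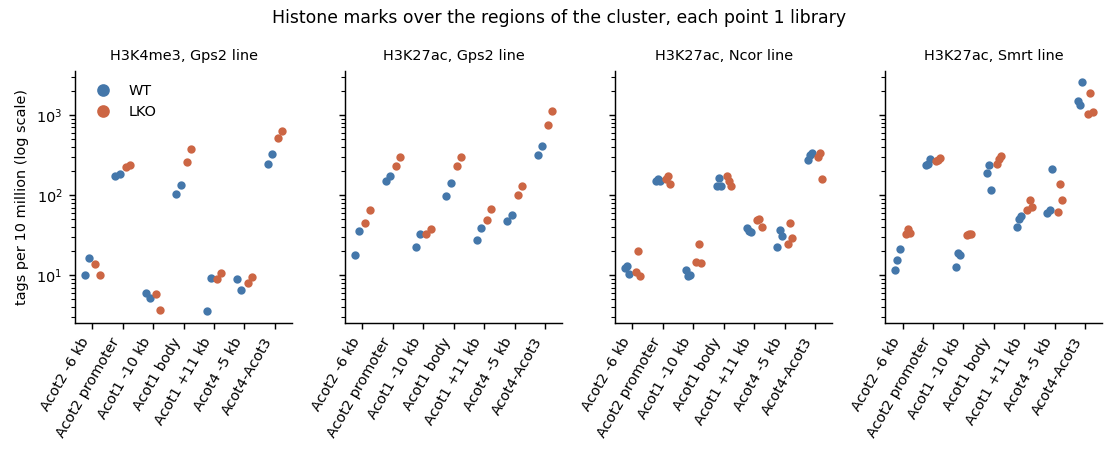
H3K4me3 and H3K27ac tags per 10000000 (log axis) over the regions of the cluster in the Gps2, Ncor and Smrt lines, each point 1 library. LKO points lie above WT points in the Gps2 line at the Acot1 and Acot4 to Acot3 regions, overlap them there in the Ncor line, and the Smrt line has the highest level at Acot4 to Acot3.

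Pol II was measured in 1 WT and 1 Gps2 LKO library, without a replicate check. It was at least 2-fold higher in LKO liver at 3 of 10 peaks, where 7.72% of all peaks were, and at least 2-fold lower at 0 of 10, where 5.94% were. Beyond the end of Acot3, at chr12:85401077-85401279, there were 2 tags in WT and 14 in LKO liver, a ratio of 6.86 (exact 95% interval 1.58 to 62.2, counting error only). Near the end of Acot4, at chr12:85385131-85385333, there were 14 and 34 tags, a ratio of 2.38 (1.24 to 4.80). Behind Acot1, at chr12:85359567-85359769, there were 5 and 13 tags, with an interval that includes 1. All 3 lie near or beyond the 3′ end of a gene, and RNA of all 4 genes rose. Another peak beyond the end of Acot3, at chr12:85400673-85400875, had 10 and 11 tags, a ratio of 1.08 (0.416 to 2.83).

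At the promoters the ratios were closer to 1. The Acot4 start had 139 and 136 tags (ratio 0.959, 0.752 to 1.22), and the Acot2 start 44 and 40 (0.891, 0.566 to 1.40). The Acot1 start had 54 and 79 tags (1.43, 1.00 to 2.07) and the peak at the beginning of Acot3 92 and 117 (1.25, 0.941 to 1.66). For Acot4, RNA was 2.41-fold higher while its promoter Pol II differed by less than the counting error.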

How the data were processed

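Polyadenylated RNA was sequenced from 4 WT and 4 Gps2 LKO livers, and ChIP-seq of GPS2, NCOR, PPARα, Pol II, H3K27ac and H3K4me3 was made from 64 libraries. The RNA-seq file deposited by the authors holds raw read counts per gene, and the ChIP-seq tables give unscaled counts of tags in HOMER peaks, deposited with the total tags of each library in its header. Methods and labels name Bowtie with mm9 for ChIP-seq, peak heights per total uniquely mapped reads, while the processing notes also list Bowtie2, HISAT2 and featureCounts, with versions not given in the sources used here. The gene coordinates of the RNA-seq table fit mm10, and gene positions printed here are those of mm9 (NCBIM37, GENCODE M1). The authors' own fold changes, p-values and FDR in the RNA-seq table were not used. The 2 input libraries were not analysed here.

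Genes were tested with edgeR 4.0.16 (R 4.3.3; quasi-likelihood, TMM, filterByExpr, 12220 genes) and peaks with edgeR scaled to total tags, with at least 1 tag in the comparison. P-values were adjusted over all features (Benjamini-Hochberg) and called below 0.05. Peaks of the table shared by 2 marks entered where at least 2 of the 4 deposited peak lists of the mark overlapped. This left 3 of 10 regions untested for H3K27ac and 7 of 10 for H3K4me3. SE is the log2 difference over the root of the F statistic. Where a genotype had 1 library, 95% intervals are exact (Poisson) and no test was made. DESeq2 1.42.0 and the alternatives in the closing section were run on the same tables. On simulated data with 200 changed features the fit recovered 95% of 2-fold and 100% of 4-fold changes for RNA-seq. For PPARα the fit recovered 36% and 99% with 3 against 3 libraries, and 4% and 62% with 2 against 2. The tag levels and spread set in the simulation are not given here. These shares therefore do not give the power at the peaks of the cluster. Sites are peaks whose centres lie within 150 bp of the next. Members, gene lists and tests were chosen with earlier results of these data known. The genes named from each list are at most the 2 largest rises and falls among called genes, apart from Acot5 and Acot6. Acot5 has no counts, and Acot6 was named after its values were seen. Sequences were aligned with Biopython 1.88, and plots drawn with matplotlib 3.10.9.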

Additional observations from a re-analysis of the deposited data

How the results depend on the processing

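The 4 RNA calls held under 13 alternatives, with log2 differences of 1.43 to 1.70 for Acot1, 1.77 to 2.09 for Acot2, 3.80 to 4.16 for Acot3 and 1.09 to 1.34 for Acot4. The counts of called peaks were less stable. TMM scaling left 1 of 7 H3K27ac regions called in the Gps2 line, 0 of 24 NCOR and 4 of 17 PPARα peaks in the Ppara line, and 3 of 21 PPARα peaks in the Gps2 line. DESeq2 called 1 H3K4me3 region, 1 H3K27ac region in the Smrt line, 0 NCOR and 3 PPARα peaks in the Ppara line, and 0 PPARα peaks in the Gps2 line. With all peaks of the shared table H3K4me3 had 0 calls, and a filter on low counts left 1 NCOR call in the Ppara line. Apart from DESeq2 in the Smrt line, shares of all features called under these settings are not given here. Chosen after the data were seen, the 3 WT libraries as 1 sample gave 11 PPARα calls in the Gps2 line in place of 18.

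Leaving out 1 library in turn gave 0 to 5 H3K27ac calls in the Gps2 line (0 without WT replicate 1 or 2, 5 without LKO replicate 1), 0 to 16 GPS2 calls in the Ncor line (16 without WT replicate 3), 0 to 1 NCOR calls and 0 to 9 PPARα calls in the Ppara line (0 without WT replicate 1 or 2). With a lone library in a group, that library was assumed to vary like the other group. Correlations (r) between the deviations of same-numbered libraries were 0.012 to 0.115 in the RNA pairs and 0.008 to 0.104 for GPS2 in the Ncor line. For NCOR in the Ppara line they were -0.019, 0.254 and 0.272. Every other comparison with 3 or more pairs held a pair with r below 0. The numbers were not taken as pairs. The replicate block gave 5 H3K27ac calls in the Gps2 line, 8 GPS2 calls in the Ncor line, 1 NCOR and 0 PPARα calls in the Ppara line, and left the other counts within 1.5 times. Shares of all features called under these alternatives are not given here, so these counts do not speak for the cluster alone.

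The PPARα difference in the Gps2 line fell below 0 at 8 of 21 peaks by TMM and at 7 by DESeq2. By TMM and DESeq2 it was -0.0653 and -0.0488 at Acot1 -10.1 kb, -0.0712 and -0.0589 at Acot1 -1.0 kb, -0.0979 and -0.0885 at Acot1 +11.2 kb, -0.261 and -0.248 at Acot4 -5.3 kb and -0.0868 and -0.0613 at Acot3 +0.6 kb, and -0.0082 by TMM at the Acot4 start. The cause of the other shifts was not tested. TMM also brought the median of GPS2 peaks in the Ncor line to -0.16 (all peaks -0.04). Depth limits sites under about 10 tags per library.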

Other observations

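The closest RNA profiles to each gene over the 8 livers, by root mean square distance of log2 CPM centred on the WT mean among 9911 genes, were Inmt (0.12) and Mgst3 (0.16) for Acot1, Nipal1 (0.17) and Dsg1c (0.18) for Acot2, Cyp2c40 (0.32) and Apoa4 (0.34) for Acot3, and Pde4b (0.16) and Gpc6 (0.16) for Acot4. Acot1 and Acot2 were nearer to each other (0.32) than either was to Acot3 (1.69 and 1.48), and Acot4 lay at 0.39 from Acot1 and 0.50 from Acot2. The coding sequences of Acot1 and Acot2 have 95.5% identity, and the part of shared reads in their likeness was not tested. Apoa4, an apolipoprotein of triglyceride-rich particles, went from 228 to 4468 CPM, a log2 difference of 4.29, and Cyp2c40, a cytochrome P450, from 8.23 to 160 CPM.

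Around the cluster, 4 other genes with a start within 200000 bp were tested. The gene 2410016O06Rik rose (log2 0.49 ± 0.14, SE), while Numb, an inhibitor of Notch (-0.35 ± 0.09), and Elmsan1 (-0.52 ± 0.13) fell (edgeR, adjusted p of 0.0111, 0.00914 and 0.00461).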
